A study of Mus musculus with 16 samples.

Results

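Il6, Il12a and Csf3 encode secreted cytokines with a helical-bundle fold, and they were followed here as transcripts and as m6A peaks in mouse peritoneal macrophages (PMs). The members were chosen by gene symbol in the deposited table of merged peaks. This gave 3 of the 4943 genes and 7 of the 7069 peaks of that table, with 3 peaks on Il6, 2 on Il12a and 2 on Csf3. All 3 genes and all 7 peaks passed the filters on low counts, which do not require reads in every library.

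PMs were obtained by peritoneal lavage 3 days after injection of 3% thioglycolate into WT mice or into Adap-/- mice, which carry the knockout in every cell. The study states a C57BL/6 background and sex-matched littermates for all mice. The cells were cultured and either mock-treated or given LPS at 1 ug/ml for 6 h. This gave 4 groups (WT mock, WT LPS, Adap-/- mock and Adap-/- LPS) with 2 replicates each. Every replicate had an input library of fragmented RNA and an IP library of the fragments captured with an m6A antibody, 16 libraries in all. The labels do not say whether replicates came from separate mice, so p-values measure only the spread between these samples, which may be technical.

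IL-6 is a pleiotropic cytokine that drives the acute phase response and acts through IL-6 receptor chains and the shared chain gp130. Il12a encodes the p35 subunit, which pairs with the p40 subunit from Il12b to form IL-12, an inducer of type 1 T cell responses, and Csf3 encodes G-CSF, the growth factor of granulocytes. Macrophages make all of these after LPS binds TLR4, through NF-kappaB, C/EBP, AP-1 and IRF factors, and their short-lived mRNAs are subject to rapid decay. N6-methyladenosine (m6A) is a base mark that tends to sit near stop codons and can alter mRNA stability.

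The start of each gene is where these factors act, so the 250 bases before each annotated start are shown for Il6 and Il12a, from RefSeq (GRCm38.p6, 5′ to 3′). The Csf3 window was not analysed here. Il6 had 1 annotated start and Il12a had 2. Capitals mark matches, on either strand, to the letters GGANTTTCC for kappaB, TGANTCA for AP-1 and TTGCNNAA for C/EBP.
Il6, plus strand, chr5:30012864-30013113: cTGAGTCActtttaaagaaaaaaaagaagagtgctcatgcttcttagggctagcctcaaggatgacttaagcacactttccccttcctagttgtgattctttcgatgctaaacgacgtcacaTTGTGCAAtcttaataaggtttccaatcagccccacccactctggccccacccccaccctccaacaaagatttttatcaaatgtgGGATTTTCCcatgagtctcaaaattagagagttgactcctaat
Il12a, start 1, plus strand, chr3:68690394-68690643: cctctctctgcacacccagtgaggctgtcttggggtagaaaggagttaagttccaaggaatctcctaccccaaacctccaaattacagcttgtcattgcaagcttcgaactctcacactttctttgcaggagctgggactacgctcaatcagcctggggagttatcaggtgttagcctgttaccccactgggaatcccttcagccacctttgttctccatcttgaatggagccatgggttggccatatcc
Il12a, start 2, plus strand, chr3:68691174-68691423: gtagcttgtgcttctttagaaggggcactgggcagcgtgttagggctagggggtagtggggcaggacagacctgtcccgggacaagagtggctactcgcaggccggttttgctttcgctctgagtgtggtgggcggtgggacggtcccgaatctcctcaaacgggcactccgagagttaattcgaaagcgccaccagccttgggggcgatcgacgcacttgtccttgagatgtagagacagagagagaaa
The Il6 window held 1 match to each motif. The kappaB letters GGATTTTCC lay 34 bases before the start, the C/EBP letters TTGTGCAA (a match on the minus strand) lay 120 bases before it, and the AP-1 letters TGAGTCA lay 242 bases before it. These letters were not found in either Il12a window. Of the 32851 promoter windows in the same RefSeq table, 1.07% held the kappaB letters, 6.75% the AP-1 letters and 9.56% the C/EBP letters. A match is a description of the sequence and not a measured binding site, and no overlap between the 3 matches was present in the Il6 window.

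The 7 peaks lie on the plus strand, with coordinates as the table lists them and the build GRCm39 from the submitters' processing notes. On Il6 (ENSMUSG00000025746) a peak of 50 bases covered the start codon and CDS (chromosome 5, 30218346 to 30218396), a merged region of 4780 bases reached from the CDS to the stop codon (30218421 to 30223201), and a peak of 425 bases lay in the 3′UTR (30224326 to 30224751). Il12a (ENSMUSG00000027776) had a CDS peak of 75 bases (chromosome 3, 68598783 to 68598858) and a merged region of 6446 bases over CDS, stop codon and 3′UTR (68599364 to 68605810). Csf3 (ENSMUSG00000038067) had a peak of 100 bases in the CDS (chromosome 11, 98593242 to 98593342) and another of 100 bases at the stop codon and 3′UTR (98593767 to 98593867). They are numbered here from the 5′ end of each gene. None of the 7 was annotated to a second gene. The long regions on Il6 and Il12a reach across introns, so levels were not compared between genes.

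As a check on the genotype, Fyb1, which encodes ADAP, had 38.6 ± 4.06 (SD, n = 2) normalized input CPM in Adap-/- LPS PMs and 363 ± 19.6 (SD, n = 2) in WT LPS PMs. Depth lay between 2121313 and 4325961 reads per input library and between 5728590 and 19030373 per IP library. Of 8 macrophage markers, 7 had a peak, among them Cd68, Lyz2 and Adgre1, and Itgam had none. Their summed input level lay between 8721 and 10606 CPM over all 8 input libraries, but single markers moved in opposite directions with LPS. Lyz2 had 4415 and 5344 CPM in WT mock and 3266 and 2819 CPM in WT LPS libraries. Cd14 had 509 and 512 CPM in WT mock and 2346 and 1978 CPM in WT LPS libraries. Both moved the same way in Adap-/- PMs, and Adgre1 lay between 5.12 and 15.3 CPM. Single markers also differed between genotypes after LPS, in both directions. Fcgr1 had 146 and 122 CPM in Adap-/- LPS and 274 and 382 CPM in WT LPS libraries, and Cd14 had 2711 and 3376 CPM in Adap-/- LPS libraries. Both Adap-/- LPS libraries were also lower for Cd68 and Mertk and higher for Adgre1, whereas Lyz2 and Csf1r overlapped. No peak was listed for any of the 8 neutrophil, 6 B cell, 7 T and NK cell or 6 mast cell markers, and 1 of 10 fibroblast and mesothelium markers (Pdgfra), 2 of 7 dendritic cell markers and 2 of 3 endothelial markers had one. Pdgfra lay between 27.4 and 70.8 CPM, with ranges that overlapped between all 4 groups, and the table holds only transcripts with a peak, so other cells cannot be judged from it.

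Before the results, 2 IP libraries that stand apart have to be named. LPS raised 77 other genes by more than 5 on the log2 scale of input level in both genotypes. On their 166 peaks, the IP libraries of Adap-/- mock replicate 2 and WT mock replicate 1 held 55.5% and 68.3% of the mean level of the LPS IP libraries. The other Adap-/- and WT mock IP libraries held 6.37% and 3.96%, and the mock input libraries between 0.795% and 1.18% of the LPS input mean. Results that rest on these 2 libraries are therefore given with and without them, and the cause was not tested.

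In input, all 3 cytokine transcripts went from a few reads in mock-treated PMs to much higher levels after LPS in both genotypes, and Il12a and Csf3 were higher in Adap-/- than in WT PMs after LPS. In bulk RNA, fewer cells of a type and less RNA per cell cannot be told apart. Levels are normalized CPM, the reads of all peaks of a gene as CPM after TMM scaling of the library sizes.

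Il6 input level was 1758 and 1083 CPM in the WT LPS replicates (1 and 2, as throughout) and 1562 and 1892 CPM in the Adap-/- LPS replicates. The mock libraries held 9 and 3 Il6 reads in WT PMs (2.30 and 0.808 CPM) and 2 and 4 reads in Adap-/- PMs (0.525 and 0.971 CPM). Every LPS library was far above every mock library, whereas WT and Adap-/- libraries overlapped after LPS. Differences are given as log2 fold changes with their standard error (SE), and a gene was called where its Benjamini-Hochberg adjusted p over all genes, from the quasi-likelihood test of edgeR, was below 0.05. LPS raised Il6 by 9.79 on the log2 scale in WT PMs (SE 0.33, edgeR adjusted p = 2.91e-13) and by 11.09 in Adap-/- PMs (SE 0.35, edgeR adjusted p = 2.54e-13). Among the 4742 genes tested, ordered by log2 fold change, Il6 was number 3 in WT and number 2 in Adap-/- PMs. On pooled reads the fold was 918 in WT PMs (exact 95% interval 525 to 1778) and 2254 in Adap-/- PMs (1035 to 6144), intervals that cover counting error only.

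Il12a had 1799 and 1214 CPM in WT LPS PMs and 2509 and 3188 CPM in Adap-/- LPS PMs. In mock-treated PMs it had 3 and 7 reads in WT (0.767 and 1.89 CPM) and 9 and 25 reads in Adap-/- libraries (2.36 and 6.07 CPM). Both Adap-/- libraries lay above both WT libraries after LPS, and also before it. The rise with LPS was 10.13 in WT PMs (log2, SE 0.34, edgeR adjusted p = 2.97e-13, number 2 of 4742) and 9.37 in Adap-/- PMs (SE 0.29, edgeR adjusted p = 2.30e-13, number 6). On pooled reads the fold was 1165 in WT PMs (exact 95% interval 633 to 2431) and 654 in Adap-/- PMs (468 to 945).

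Csf3 was the least abundant in reads, with 103 and 86.4 CPM in WT LPS PMs and 150 and 188 CPM in Adap-/- LPS PMs. WT mock PMs had 5 and 2 reads (1.28 and 0.539 CPM) and Adap-/- mock PMs had 0 and 1 (0 and 0.243 CPM). Adap-/- libraries were thus the highest after LPS and the lowest without it. LPS raised Csf3 by 6.64 on the log2 scale in WT PMs (SE 0.30, edgeR adjusted p = 9.85e-12, number 47 of 4742). In Adap-/- PMs the fitted rise was 10.02 (SE 0.35, edgeR adjusted p = 7.26e-13, number 3), a size that rests on the single mock read. On pooled reads the fold there was 1323 with an exact 95% interval from 237 to 52303, against 104 (50.2 to 260) in WT PMs. All 3 members were called higher after LPS in both genotypes, where 30.2% of all genes tested were called higher in WT PMs and 28.5% in Adap-/- PMs.

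**Figure D1:**
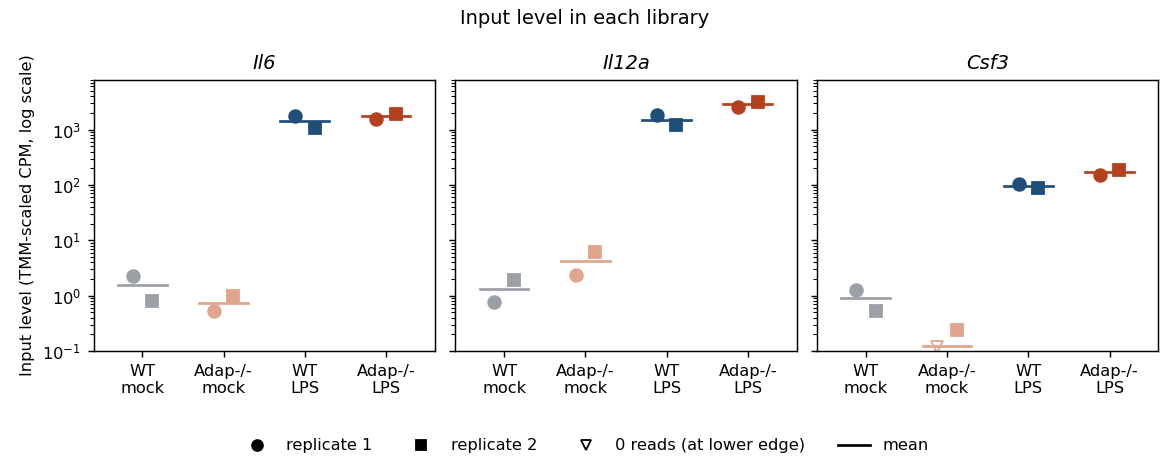
Input level of Il6, Il12a and Csf3 (TMM-scaled CPM, log scale) in each of the 8 input libraries, with circles for replicate 1, squares for replicate 2 and a line at the mean of each group. All LPS libraries lie above all mock libraries, and the Adap-/- LPS libraries lie above the WT LPS libraries for Il12a and Csf3 but overlap with them for Il6 (1562 and 1892 against 1758 and 1083 CPM).

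Together the 3 genes took 0.272% and 0.183% of all counted input reads in the WT LPS replicates and 0.354% and 0.421% in the Adap-/- LPS replicates. In the mock input libraries the share lay between 0.000519% and 0.00129%. Adap-/- LPS PMs had the highest mean of each gene, at 1727 ± 233 CPM for Il6, 2849 ± 480 CPM for Il12a and 169 ± 26.7 CPM for Csf3 (SD, n = 2). WT LPS followed with 1421 ± 478, 1507 ± 414 and 94.9 ± 12.1 CPM (SD, n = 2), in the same order of genes. The mock groups had means between 0.121 and 4.21 CPM, and none of the 3 genes was called between the mock groups.

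Between genotypes after LPS, Il12a was higher in Adap-/- PMs by 0.92 on the log2 scale or 1.89-fold (SE 0.18, 95% interval 0.54 to 1.29, edgeR adjusted p = 0.00239). Csf3 was higher by 0.83 or 1.77-fold (SE 0.14, 95% interval 0.53 to 1.12, edgeR adjusted p = 0.000957). Il6 had a log2 fold change of 0.28 (SE 0.17, 95% interval −0.08 to 0.64, edgeR adjusted p = 0.312) and did not pass. Of the 3 members 2 were therefore called higher and 0 lower, where 6.03% of all genes tested were called higher and 9.78% lower. The Il12a call was not made by DESeq2 (log2 fold change 0.91, adjusted p = 0.199), whereas Csf3 was called by DESeq2 too (adjusted p = 0.000845).

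The Il6 comparison turned on the WT LPS replicates. Without WT LPS replicate 1 its log2 fold change was 0.67 (edgeR adjusted p = 0.0147), and without WT LPS replicate 2 it was −0.02 (edgeR adjusted p = 0.945). In the same settings Il12a had 1.23 and 0.66 and Csf3 had 0.96 and 0.71, all called. WT LPS replicate 2 minus replicate 1 was −0.70 for Il6, −0.57 for Il12a and −0.26 for Csf3 on the log2 scale. The median of the 77 other LPS-raised genes was −0.06 in the same pair, with 62.3% of them below 0. In Adap-/- LPS PMs the corresponding differences were 0.28, 0.35 and 0.32 with a median of −0.01. The members thus differed between replicates in the same direction within each genotype, and by more than the median LPS-raised gene.

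**Figure D2:**
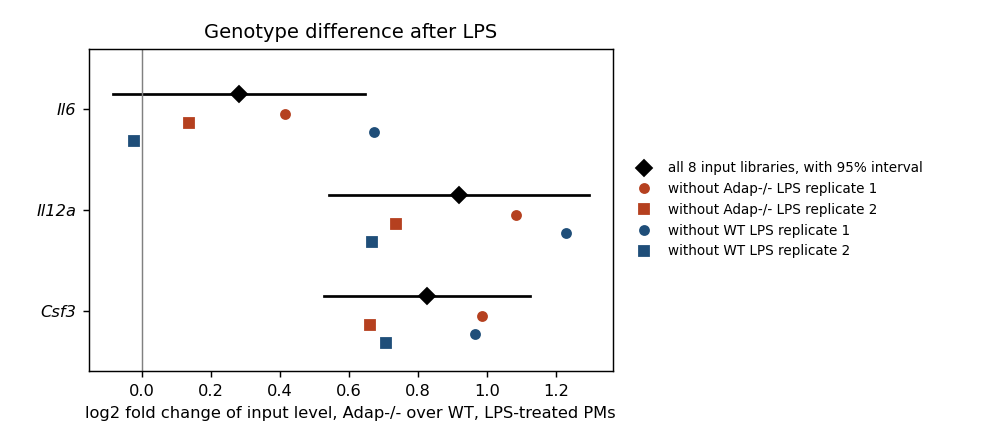
Log2 fold change of input level between Adap-/- and WT in LPS-treated PMs for Il6, Il12a and Csf3, as fitted on all 8 input libraries (diamonds, with 95% intervals) and with 1 LPS library left out (circles and squares). Il12a and Csf3 stay above 0 in each of these settings, while Il6 runs from −0.02 to 0.67.

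In mock-treated PMs the levels were near the limit of detection. The log2 fold changes of Adap-/- against WT were −1.02 for Il6 (SE 0.97, edgeR adjusted p = 0.518), 1.68 for Il12a (SE 0.68, edgeR adjusted p = 0.105) and −2.56 for Csf3 (SE 1.15, edgeR adjusted p = 0.140). At 0 to 25 reads a library these differences were not resolved. Of all genes tested, 17.4% were called in this comparison in either direction. Il12a was called when Adap-/- mock replicate 1 was left out, with a log2 fold change of 2.18 (edgeR adjusted p = 0.0429).

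The rise with LPS in Adap-/- PMs minus that in WT PMs was 1.30 for Il6 (SE 0.99, edgeR adjusted p = 0.644), −0.76 for Il12a (SE 0.72, edgeR adjusted p = 0.738) and 3.38 for Csf3 (SE 1.15, edgeR adjusted p = 0.177). None passed, while 1.64% of all genes tested did. For Csf3 the interval of this difference ran from 0.94 to 5.83 before adjustment over genes, and the mock side of it held 8 reads in all. The genotypes were thus not shown to differ in how strongly LPS raised any of the 3 genes.

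Among tested genes other than the 3 members, those with an input profile most like each member were found by the root-mean-square difference of mean-centred log2(CPM + 1) over the 8 input libraries. For Il6 they were Il1b (0.443), which encodes the inflammasome-processed cytokine IL-1beta, Ptgs2 (0.654), the inducible prostaglandin synthase, and Art3 (0.770), whose 2 shared peaks are also annotated to another gene. Ptgs2 (0.410), Il1b (0.464) and the neutrophil chemokine gene Cxcl2 (0.626) were nearest to Il12a. Ccl3 (0.418), a chemokine gene, ENSMUSG00000074805 (0.484) and Tnf (0.504) were nearest to Csf3. Il6 and Il12a differed from each other by 0.760, and Csf3 from Il6 by 1.56. With 1 CPM added, the rise of a gene near 0 CPM in mock libraries is cut by an amount that depends on its level. These differences therefore partly follow abundance. Ptgs2 and Cxcl2 were called higher in Adap-/- than in WT PMs after LPS, with log2 fold changes of 0.94 (edgeR adjusted p = 0.000572) and 1.11 (edgeR adjusted p = 0.00224). Il1b, with 1 shared peak, was called higher as well (1.15, edgeR adjusted p = 0.00101). ENSMUSG00000074805, with 1 shared peak, was called higher too (1.06, edgeR adjusted p = 0.00181). Ccl3 (0.44, edgeR adjusted p = 0.0565), Tnf (0.40, edgeR adjusted p = 0.135) and Art3 (−0.45, edgeR adjusted p = 0.146) did not pass.

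Among the other ligands of the IL-6 and IL-12 families, 5 of 10 had a peak and were tested. In WT PMs 4 rose with LPS and 0 fell, and in Adap-/- PMs 3 rose and 0 fell (list medians 1.41 and 1.74, medians over all genes −0.03 and −0.03). Il12b, the partner of Il12a in IL-12, had 177 and 117 CPM in WT LPS and 266 and 276 CPM in Adap-/- LPS libraries. No mock library exceeded 1.57 CPM of Il12b, and its rise with LPS in WT PMs was 8.43 (log2, SE 0.35, edgeR adjusted p = 4.93e-12). Lif, a ligand that signals through gp130, had 12.4 and 11.6 CPM in WT LPS and 28.2 and 39.4 CPM in Adap-/- LPS libraries. Both were higher in Adap-/- PMs after LPS, Il12b by 0.87 (SE 0.15, edgeR adjusted p = 0.00110) and Lif by 1.48 (SE 0.27, edgeR adjusted p = 0.00186). This made 2 of 5 higher and 0 lower, beside 6.03% and 9.78% of all genes tested. The lowest log2 fold changes of this list were those of Clcf1 with −0.65 (edgeR adjusted p = 0.172, 1 shared peak) and Osm with 0.00 (edgeR adjusted p = 0.999), neither called.

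The other helical-bundle cytokines had 4 of 16 genes with a peak and 3 tested. LPS raised Il15, a growth factor of NK and memory T cells, by 4.88 (log2, edgeR adjusted p = 2.14e-13) and Csf1, the growth factor of macrophages, by 2.98 (edgeR adjusted p = 4.40e-12) in WT PMs, and the same 2 of 3 were called in Adap-/- PMs. After LPS, Il15 had 879 and 719 CPM in WT and 475 and 495 CPM in Adap-/- libraries and was lower in Adap-/- PMs, by a log2 fold change of −0.72 (SE 0.12, edgeR adjusted p = 0.000976). Kitlg, which encodes stem cell factor, had −1.10 (edgeR adjusted p = 0.219) and Csf1 had 0.08 (edgeR adjusted p = 0.679), neither called. Of these cytokines and the ligands above, Il12b and Lif were thus called higher and Il15 lower in Adap-/- PMs, and the others were not called.

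Of 15 receptor chains 11 had a peak and 10 were tested. In WT PMs 2 rose and 3 fell with LPS, and 2 rose and 4 fell in Adap-/- PMs. Il6ra, the IL-6 binding chain, dropped by 3.77 on the log2 scale in WT PMs (SE 0.35, edgeR adjusted p = 1.07e-07), from 25.6 and 20.7 CPM to 1.55 and 1.81 CPM. Il6st, which encodes gp130, dropped by 1.19 (edgeR adjusted p = 6.24e-07), whereas Csf3r, the G-CSF receptor, rose by 1.37 (edgeR adjusted p = 1.82e-08) to 306 and 369 CPM. The receptor of Csf3 thus rose with its ligand while both chains of the IL-6 receptor fell, and 28.9% of all genes tested were called lower in WT PMs and 26.0% in Adap-/- PMs. After LPS none of these 3 was called between genotypes. Of the 10 chains 1 was called, Il11ra1 with −0.41 (edgeR adjusted p = 0.0304), whose 3 peaks are shared with another gene. Over all genes tested, 6.03% were called higher and 9.78% lower between genotypes after LPS.

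JAK-STAT signalling genes, which carry the signal of these receptors, had 8 of 17 with a peak, all tested. Of these 6 rose with LPS in WT PMs and 5 in Adap-/- PMs, and 0 fell. The inhibitors Socs1 and Socs3 rose most, by 5.29 (edgeR adjusted p = 1.20e-11) and 4.89 (edgeR adjusted p = 6.62e-13) in WT PMs. Between genotypes after LPS 0 of the 8 were called, beside 6.03% of all genes tested called higher and 9.78% called lower. The largest log2 fold change was that of Cish, another inhibitor, with 0.74 (SE 0.26, edgeR adjusted p = 0.0686, 2 shared peaks), while Socs1 had 0.16 and Socs3 had 0.17.

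Transcription factors of cytokine genes had 15 of 18 with a peak, all tested, and 13 rose while 1 fell with LPS in each genotype. Nfkbiz, which encodes the NF-kappaB cofactor needed for Il6 induction, rose by 4.37 (edgeR adjusted p = 6.98e-14) and Irf1 by 3.79 (edgeR adjusted p = 4.96e-11) in WT PMs, and Jun, an AP-1 subunit with 1 shared peak, dropped by 1.29 (edgeR adjusted p = 7.97e-09). After LPS 1 of the 15 factors was higher in Adap-/- PMs and 2 were lower. Over all genes tested, 6.03% were called higher and 9.78% lower in this comparison. Cebpd, a C/EBP factor, was higher by 0.42 (edgeR adjusted p = 0.0384). Atf3, a repressor of TLR4-induced cytokine genes, had −0.81 (edgeR adjusted p = 0.000252), and Irf5, an activator of Il6 and Il12 genes, had −0.43 (edgeR adjusted p = 0.00636). Without LPS 2 of the 15 factors were higher in Adap-/- PMs and 4 were lower, beside 17.4% of all genes called in either direction. The lower ones were Atf3 (−0.77, edgeR adjusted p = 0.000388), Irf1 (−0.69, edgeR adjusted p = 0.0138), Jun (−0.43, edgeR adjusted p = 0.00523) and Irf5 (−0.32, edgeR adjusted p = 0.0318). Nfkbiz was higher by 1.04 (edgeR adjusted p = 0.000137) and Nfkbia by 0.40 (edgeR adjusted p = 0.0287). Cebpd was not called (−0.02, edgeR adjusted p = 0.940).

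Of 13 genes that act on the decay or stability of cytokine mRNA, 8 had a peak and 7 were tested, and 6 rose and 1 fell with LPS in each genotype. Arid5a, which protects Il6 mRNA from decay, rose by 3.34 in WT PMs (edgeR adjusted p = 2.44e-13) and by 3.02 in Adap-/- PMs (edgeR adjusted p = 1.04e-12). After LPS it was lower in Adap-/- PMs, at 545 and 477 CPM against 822 and 809 CPM, with a log2 fold change of −0.67 (SE 0.10, edgeR adjusted p = 0.000284). Zc3h12c, a relative of the nuclease Regnase-1, was higher, at 567 and 603 CPM against 454 and 455 CPM, by 0.36 (edgeR adjusted p = 0.0454). These made 1 of the 7 higher and 1 lower, where 6.03% of all genes tested were called higher and 9.78% lower. Both differed without LPS as well, Arid5a by −0.35 (edgeR adjusted p = 0.0477) and Zc3h12c by 1.06 (edgeR adjusted p = 0.000135).

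**Figure D3:**
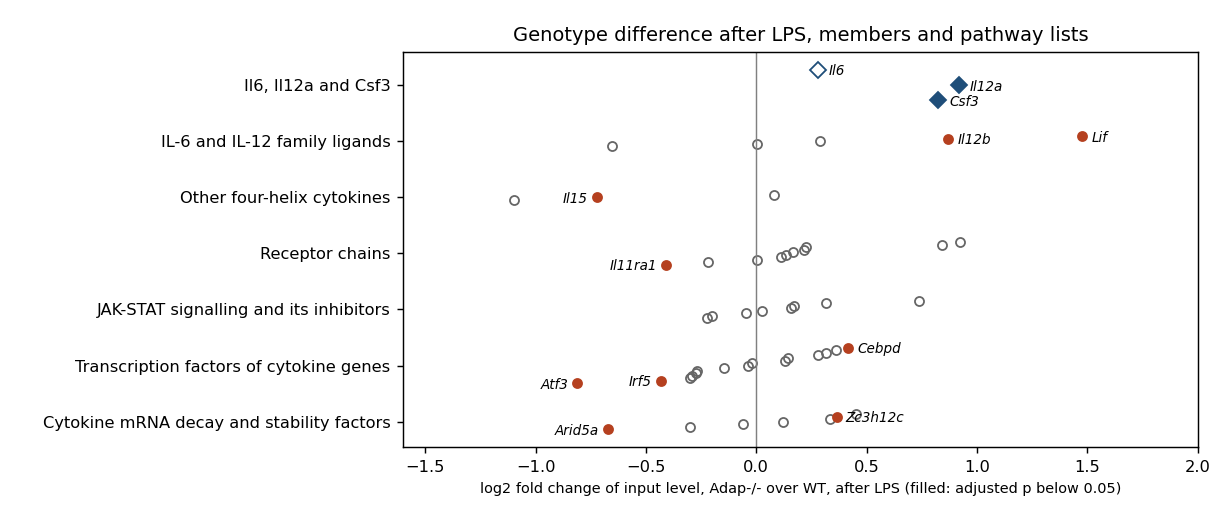
Log2 fold change of input level between Adap-/- and WT in LPS-treated PMs for Il6, Il12a and Csf3 (diamonds) and for each tested gene of 6 lists (circles), with filled symbols for an adjusted p below 0.05. Of the filled circles, Il12b, Lif, Cebpd and Zc3h12c lie on the side of Il12a and Csf3, while Il15, Il11ra1, Irf5, Atf3 and Arid5a lie below 0.

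In the IP libraries the 5 peaks of Il6 and Il12a had high levels after LPS, and the mock IP libraries of each genotype disagreed with each other. Il6 peak 1, at the start codon, had 34.0 and 24.6 CPM in Adap-/- LPS and 24.9 and 19.2 CPM in WT LPS IP libraries. In mock IP libraries Il6 peak 1 held 1 and 19 reads for Adap-/- and 47 and 0 for WT, at most 6.05 CPM. This peak was higher in every LPS than in every mock IP library. Il6 peak 3, in the 3′UTR, had 113 and 166 CPM in Adap-/- LPS and 137 and 58.4 CPM in WT LPS libraries, beside 12.8 and 164 CPM in Adap-/- mock and 172 and 4.90 CPM in WT mock libraries. Here the 2 libraries named above were as high as the LPS libraries. Il6 peak 2 behaved in the same way, with 9.50 and 198 CPM in Adap-/- mock and 211 and 2.24 CPM in WT mock libraries against 35.2 to 105 CPM after LPS.

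Il12a peak 1 had 39.0 and 40.3 CPM in Adap-/- LPS, 20.1 and 18.5 CPM in WT LPS, 0.400 and 9.14 CPM in Adap-/- mock and 17.0 and 0 CPM in WT mock IP libraries. Both Adap-/- LPS libraries were above both WT LPS libraries. Il12a peak 2 had 236 and 461 CPM in Adap-/- LPS and 209 and 90.1 CPM in WT LPS libraries, and 31.4 and 541 CPM in Adap-/- mock and 387 and 5.04 CPM in WT mock libraries. The highest value of this peak was therefore in a library labelled mock. Csf3 had few IP reads after LPS, 227 and 137 on peak 1 and 0 and 91 on peak 2 in Adap-/- PMs, and 33 and 2 on peak 1 and 16 and 7 on peak 2 in WT PMs. In Adap-/- mock replicate 2 there were 236 and 118 reads on Csf3 peaks 1 and 2, and in WT mock replicate 1 there were 65 and 116.

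Relative to the mean of the 4 LPS IP libraries, Adap-/- mock replicate 2 and WT mock replicate 1 held 164% and 176% for Il6, 197% and 145% for Il12a and 481% and 235% for Csf3. These values exceeded the 55.5% and 68.3% of the 77 other LPS-raised genes for each member. The mock input libraries of the same numbers held 0.0705% and 0.171% of the LPS input mean for Il6, 0.319% and 0.0413% for Il12a and 0.210% and 1.13% for Csf3. The other mock IP libraries held 10.1% and 3.22% for Il6, 11.4% and 1.81% for Il12a and 14.1% and 0% for Csf3. The transcripts were thus abundant in these 2 IP libraries while their mock inputs held almost none.

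**Figure D4:**
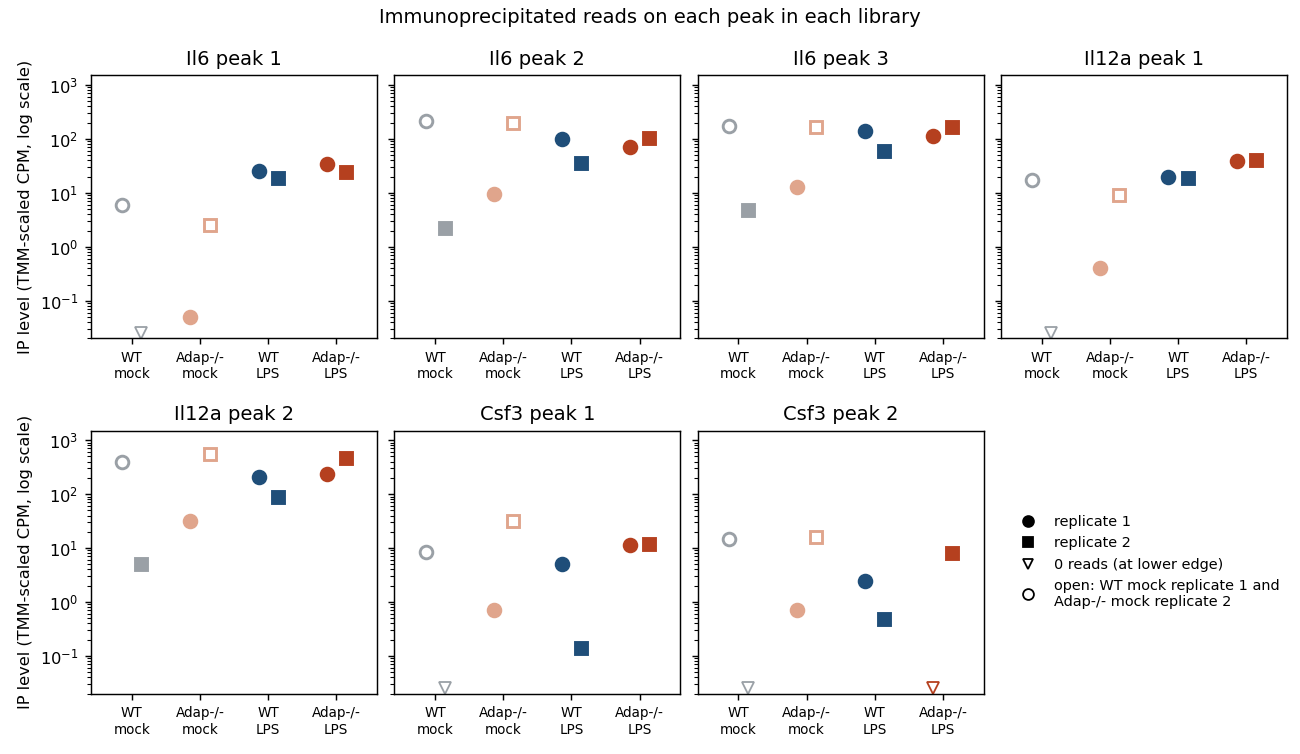
IP level (TMM-scaled CPM over all 16 libraries, log scale) of the 7 peaks in each IP library, with circles for replicate 1, squares for replicate 2, and open symbols for WT mock replicate 1 and Adap-/- mock replicate 2. On peaks 2 and 3 of Il6, peak 2 of Il12a and both Csf3 peaks, the open symbols lie above the other mock library of the same genotype and reach the levels of the LPS libraries.

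The share of a gene's reads on its first peak differed between IP and input libraries after LPS. Peak 1 took between 8.34% and 17.0% of the Il6 reads in the LPS IP libraries and between 1.13% and 1.63% in the LPS input libraries. It took 0.701% of the Il6 IP reads of Adap-/- mock replicate 2 and 1.55% of those of WT mock replicate 1, and 0.223% of those of Adap-/- mock replicate 1. For Il12a the shares of peak 1 were 8.05% to 17.0% in LPS IP and 1.68% to 1.91% in LPS input, and 1.66% and 4.20% in the 2 mock IP libraries that stand apart and 1.26% in Adap-/- mock replicate 1. Both Adap-/- mock IP libraries thus lay below the LPS input range for both genes, and WT mock replicate 1 lay in it for Il6 and above it for Il12a. WT mock replicate 2 had 0 reads on both first peaks. Over 139 peaks of 37 other LPS-raised genes, the within-gene profile of Adap-/- mock replicate 2 and WT mock replicate 1 had a rank correlation of 0.678 and 0.679 with the LPS IP mean and of 0.946 and 0.955 with the LPS input mean. The other Adap-/- mock IP library had 0.839 and 0.890 and the other WT one 0.687 and 0.769, so that all 4 mock IP libraries were closer to the LPS input mean. The LPS IP libraries themselves had 0.971 to 0.989 and 0.633 to 0.763. These are correlations across peaks, which are not independent replicates, and each LPS IP library is part of the mean it is set against.

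Across all 8 IP libraries, 0 of the 7 peaks was called between LPS and mock in either genotype. The largest log2 fold change was 4.68 for Il6 peak 1 in Adap-/- PMs (SE 1.92, edgeR adjusted p = 0.136), and the SE of the 7 peaks reached 2.77. Of all peaks tested, 8.77% were called higher and 9.67% lower in Adap-/- PMs, and 8.2% were called higher and 7.37% lower in WT PMs. A setting without Adap-/- mock replicate 2 and WT mock replicate 1 was chosen after seeing the data. These libraries had been set apart for their high levels on LPS-raised genes. Leaving them out lowers the mock side of such genes by choice, so a rise with LPS in that setting is no independent evidence. There, Il6 peak 3 rose by 3.44 in Adap-/- PMs (SE 0.60) and by 4.31 in WT PMs (SE 0.66). Il12a peak 2 rose by 3.47 (SE 0.67) and 4.88 (SE 0.76). This setting leaves 1 mock IP library per genotype, which is assumed to vary like the other groups, and WT mock replicate 2 had 0 reads on Il6 peak 1, Il12a peak 1 and both Csf3 peaks.

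Between genotypes after LPS, the IP level alone had log2 fold changes from 0.38 (Il6 peak 2) to 2.25 (Csf3 peak 1), all positive and none called (adjusted p from 0.724 to 0.954 in edgeR), where 0.0142% of all peaks were called. The SE, which reached 2.71, came from a fit that includes the mock IP libraries. Leaving out WT LPS replicate 1 gave 6.28 for Csf3 peak 1, and leaving out replicate 2 gave 1.22. Without the 2 libraries, Il12a peak 1 had 1.04 (95% interval 0.34 to 1.74, edgeR adjusted p = 0.0991) and Il12a peak 2 had 1.22 (0.11 to 2.34, edgeR adjusted p = 0.175). The 3 Il6 peaks had 0.42, 0.41 and 0.52 (standard errors 0.35, 0.47 and 0.41) in this setting. No member peak was called in it either.

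The IP-to-input ratio sets the IP level of a peak against the level of its own transcript and is the measure of m6A enrichment used here. It is scaled on all libraries together, so a shift shared by all peaks cannot be seen. In LPS-treated PMs it was 1.02 and 0.780 in Adap-/- and 0.850 and 1.20 in WT replicates on Il6 peak 1. Il12a peak 1 had 0.682 and 0.521 in Adap-/- and 0.508 and 0.681 in WT replicates. On both peaks the genotypes overlapped. The longer and 3′ peaks had lower ratios, with 0.0769 and 0.0995 in Adap-/- and 0.0968 and 0.0584 in WT replicates on Il6 peak 2, and 0.104 and 0.125 against 0.109 and 0.0746 on Il6 peak 3. Il12a peak 2 had 0.0733 and 0.116 in Adap-/- and 0.0904 and 0.0583 in WT replicates.

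Csf3 peak 1 had ratios of 0.114 and 0.103 in Adap-/- replicates and 0.0687 and 0.00243 in WT replicates, the last of which rests on 2 IP reads. Csf3 peak 2 had 0 IP reads in Adap-/- LPS replicate 1, where 3 reads would give a ratio of 0.00158, and 0.0656 in replicate 2, against 0.0383 and 0.00888 in WT replicates. The Csf3 peaks were thus the only ones whose ratio spread by more than 10-fold within a genotype. Among peaks with at least 10 input reads in each LPS library, Il6 peak 1 stood between the percentiles 37.4 and 64.3 of the ratio and Il12a peak 1 between 10.5 and 29.7. The other 5 peaks of the members lay between the percentiles 0 and 2.93 in every LPS replicate. A low IP level beside input was also seen on the 166 peaks of the 77 other LPS-raised genes. Their summed level in the LPS IP libraries was 21.6% to 29.9% of their mean in the LPS input libraries.

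**Figure D5:**
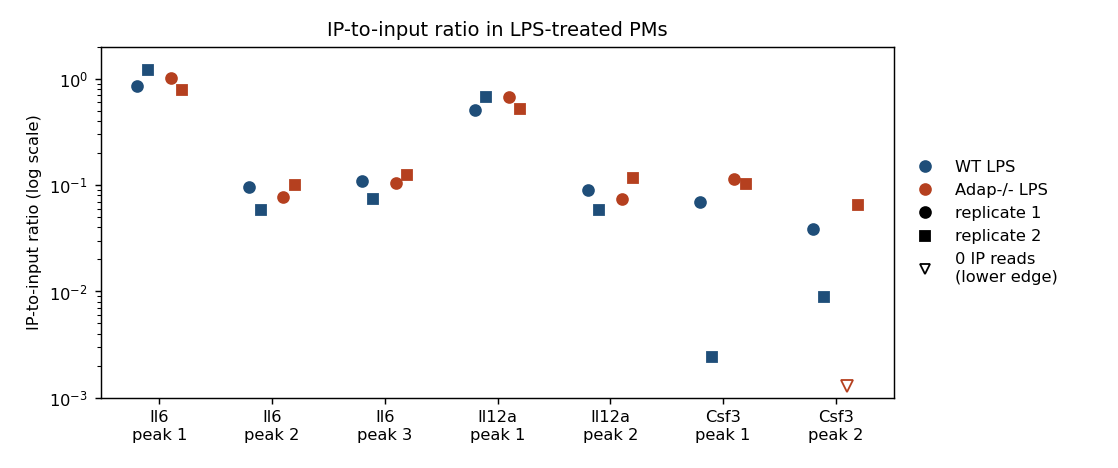
IP-to-input ratio (log scale) of the 7 peaks in the LPS-treated replicates, with WT in blue and Adap-/- in red, circles for replicate 1, squares for replicate 2 and a triangle for 0 IP reads. The first peaks of Il6 and Il12a lie between 0.508 and 1.20 and the other peaks at or below 0.125, and only on Csf3 peak 1 do both Adap-/- replicates lie above both WT replicates.

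The ratio was not called between genotypes after LPS on any of the 7 peaks. The log2 fold changes lay between −0.10 (Il6 peak 1) and 1.67 (Csf3 peak 1), with standard errors from 1.72 to 2.69 and adjusted p from 0.981 to 1.00 in edgeR. Leaving out WT LPS replicate 1 gave 5.32 for Csf3 peak 1, and leaving out replicate 2 gave 0.65. Of all peaks tested, 0.0142% were called in this comparison. Without the 2 mock IP libraries the errors were smaller, and the values were −0.07 for Il6 peak 1 (95% interval −1.14 to 0.99), 0.15 for Il6 peak 2 (−1.01 to 1.32), 0.31 for Il6 peak 3 (−0.80 to 1.42), 0.05 for Il12a peak 1 (−0.75 to 0.86) and 0.35 for Il12a peak 2 (−0.88 to 1.57). For Csf3 peak 1 the value was 1.77 (−0.40 to 3.95) and for Csf3 peak 2 it was 0.73 (−2.94 to 4.41). Il12a peak 1 was the only one of the 7 whose interval left out a 2-fold difference in both directions. The widest interval, that of Csf3 peak 2, rests on 0 to 91 IP reads per LPS library.

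Ratios of mock-treated PMs rested on few input reads. The mock input libraries held 0 to 5 reads on each of them, apart from 3 to 25 reads on Il12a peak 2. Only Il12a peak 2 in Adap-/- mock replicate 2 reached 10 input reads, where 4025 IP reads over 25 input reads gave a ratio of 60.2, and its IP library is one of those that stand apart. No peak of the whole table was called in the ratio between LPS and mock (0.0% in Adap-/- and 0.0% in WT PMs, with 812 and 763 peaks at an unadjusted p below 0.05 in edgeR, and 117 and 202 called by DESeq2). The fitted values of the 7 peaks in this comparison rest on almost empty inputs and are not given.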

How the data were processed

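The deposited table held raw read counts of merged m6A peaks for 8 IP and 8 input libraries, which the authors made from MeRIP-seq reads. The submitters' processing notes name Bowtie2 2.2.8, MACS2 2.1.2, DiffBind 2.8 and GRCm39 without their roles. Of 8094 lines, 7069 were distinct peaks, 925 of them annotated to several genes. Merged peaks span introns, and input levels cover only transcript parts inside peaks.

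Groups came from the sample titles. Input reads were summed over the peaks of each gene and fitted over the 8 input libraries. IP reads were fitted per peak over the 8 IP libraries, and the IP-to-input ratio per peak over all 16. All fits used edgeR 4.0.16 in R 4.3.3, with TMM scaling and the quasi-likelihood test. P-values were adjusted by Benjamini-Hochberg, with a threshold of 0.05. The filterByExpr step was set to 10 reads, in at least as many libraries as a group holds, and 15 in total. The fits were checked on simulated counts, drawn with less spread than the IP and ratio fits had. Only features with reads expected in every library were changed there, so nearly empty mock inputs were not covered. The filter kept 4742 genes (201 left out) for input, 7060 peaks for IP and 7058 for the ratio. The 95% intervals of fold changes used the t distribution with the fitted degrees of freedom. The fold on pooled reads used exact intervals. Without molecular identifiers, they cover counting error only. Biological coefficients of variation were 8.82% (input), 40.3% (IP) and 30.6% (all libraries).

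The members and gene lists were chosen with earlier results of these data known. In each list the named genes were the 2 highest and 2 lowest by log2 fold change in the comparison concerned, those changed by more than 1 on the log2 scale between genotypes after LPS, and the 3 genes nearest to each member. Any other gene was named after its values were seen. Alternatives were DESeq2 1.42.0, RLE size factors, no filter, only peaks of 1 gene, only the groups compared, TMM within IP and within input, at least 10 reads in every input library, a replicate block and leaving out each replicate. IP and input of the same number correlated in their deviations from the group means by −0.11 to 0.11, and numbers across groups by −0.64 to 0.28. The main fits were therefore not blocked on them, and the replicate block was run only as an alternative. Ratios per replicate set each IP library against the input library of the same number, since the protocol divides each fragmented RNA into both. RefSeq promoters were of GRCm38.p6 and were not joined to peak coordinates.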

Additional observations from a re-analysis of the deposited data

How the results depend on the processing

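The LPS rise of Il6, Il12a and Csf3 in input was called under all 10 alternatives in each genotype, and the higher level of Csf3 in Adap-/- PMs after LPS under all 10 (edgeR or DESeq2 adjusted p from 0.000303 to 0.0241). For Il12a 9 of 10 called it, with DESeq2 giving 0.91 (adjusted p = 0.199, range 0.000526 to 0.199). Leaving out 1 replicate moved Il6 between −0.024 and 0.67, the Il12a difference in mock-treated PMs between 0.83 and 2.43 and the Il12a difference of LPS responses between −1.49 and 0.10. The count of genes called between genotypes after LPS, 750, then fell to between 354 and 519. The replicate block gave 0.32 for Il6, 0.92 for Il12a and 0.82 for Csf3 after LPS and 703 genes called, and changed no member's call in that comparison.

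For the ratio between genotypes after LPS, leaving out 1 replicate gave 0.65 to 5.32 for Csf3 peak 1, −7.01 to 1.95 for Csf3 peak 2, −0.21 to 0.24 for Il12a peak 1, −0.080 to 0.73 for Il12a peak 2, −0.41 to 0.093 for Il6 peak 1 and −0.12 to 0.61 for Il6 peak 2. Csf3 peak 2 gave −0.21 with the replicate block and −0.21 with the WT mock numbers crossed, and Il12a peak 1 gave −0.0047 with DESeq2. No member peak was called in any of these. The table-wide count, 1 peak, was 0 with at least 10 input reads, 29 with DESeq2, 0 with only the 2 groups, 0 with the replicate block, 45 without both mock IP libraries that stand apart, and 0 to 14 without 1 replicate. The same count for IP level, also 1, was 136 with DESeq2, 285 with only the 2 groups, 0 with the replicate block, 5 with the WT numbers crossed, 240 without both mock IP libraries and 0 to 0 without 1 replicate.

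For the IP level between genotypes after LPS, Csf3 peak 2 gave −0.68 with the WT numbers crossed in the block and −7.17 to 2.97 without 1 replicate, Csf3 peak 1 gave 1.22 to 6.28 and Il6 peak 2 gave −0.17 to 1.28. For LPS against mock in Adap-/- PMs, leaving out 1 replicate gave −1.43 to 4.04 (Csf3 peak 1), −9.72 to 2.47 (Csf3 peak 2), −0.63 to 3.45 (Il12a peak 2), −1.18 to 3.19 (Il6 peak 2) and −0.23 to 3.43 (Il6 peak 3). Without both mock IP libraries Csf3 peak 1 gave 4.06, Csf3 peak 2 gave 2.49 and Il6 peak 2 gave 3.20, and with the WT numbers crossed Csf3 peak 1 gave 2.36 and Il6 peak 2 gave 1.30. In WT PMs the ranges were −4.76 to 8.03 (Csf3 peak 1), −3.87 to 7.23 (Csf3 peak 2), −1.35 to 4.89 (Il12a peak 2), −1.65 to 4.88 (Il6 peak 2) and −0.80 to 4.31 (Il6 peak 3). Without both libraries they gave 8.15 and 7.34 (Csf3 peaks 1 and 2, fitted against 0 mock reads and no bound), 4.88 (Il12a peak 2) and 4.87 (Il6 peak 2), and with the WT numbers crossed 1.12 (Il12a peak 2) and 0.76 (Il6 peak 2). The crossed block and the removal of both libraries were chosen after seeing the data, the removal for high levels of LPS-raised genes. The cause of these moves was not tested. With 2 replicates a group and mock inputs of 0 to 25 reads a peak, depth limits every mock value and every Csf3 ratio.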
